A study of Homo sapiens with 6 samples.

Results

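The liver-enriched transcription factors described here are 8 genes of 4 families, FOXA1, FOXA2, FOXA3, CEBPA, CEBPB, CEBPD, ONECUT1 and PROX1, chosen by gene name out of the 27009 genes of the table. They were measured by RNA-seq in cells labelled Hep3B, a human line established from a hepatocellular carcinoma. All 6 libraries were labelled as coming from cells whose own PD-L1 gene was knocked out. By label, the cells of 3 libraries carried a vector (vector), and those of the other 3 carried nPD-L1. In the paper the vector was empty, and nPD-L1 cells received by lentivirus a construct built to express nPD-L1 from a CMV promoter. nPD-L1 is a PD-L1 mutated so that it is enforced in the nucleus. The comparison addressed which of these factors differed in transcript level between the groups so labelled. PD-L1 RNA itself was not higher in the second group, as given below. The unit throughout is the scaled read, the reads counted on a gene divided by a size factor for its library.

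FOXA proteins are forkhead factors that bind closed chromatin and open it for other regulators, and in the embryo they prime the endoderm for the liver fate. C/EBP proteins are leucine zipper factors: CEBPA maintains the resting, metabolic state of the hepatocyte, whereas CEBPB and CEBPD are induced in the acute-phase response, the burst of secreted plasma proteins that follows inflammation. ONECUT1 (hepatocyte nuclear factor 6) and PROX1, a homeobox factor, act when hepatoblasts, the common precursors of hepatocytes and bile duct cells, expand and choose between these fates.

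Promoters of 5 of the 8 factors, FOXA1, FOXA3, CEBPA, CEBPB and ONECUT1, were taken from RefSeq (GRCh38.p14). The windows ran from 250 bases before to 50 bases after the start site. No window of FOXA2, CEBPD or PROX1 was searched. Shown are a factor that was higher and a relative that was not called in each of the FOXA and C/EBP families, 5′ to 3′ on the gene's strand, with matches to the searched motifs in capitals.
FOXA1: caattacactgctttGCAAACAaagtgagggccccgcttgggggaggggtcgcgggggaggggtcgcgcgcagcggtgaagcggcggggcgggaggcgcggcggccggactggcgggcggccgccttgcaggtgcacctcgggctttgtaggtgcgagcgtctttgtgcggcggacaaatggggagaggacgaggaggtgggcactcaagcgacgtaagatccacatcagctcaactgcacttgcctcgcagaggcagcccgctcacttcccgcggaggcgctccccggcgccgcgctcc
FOXA3: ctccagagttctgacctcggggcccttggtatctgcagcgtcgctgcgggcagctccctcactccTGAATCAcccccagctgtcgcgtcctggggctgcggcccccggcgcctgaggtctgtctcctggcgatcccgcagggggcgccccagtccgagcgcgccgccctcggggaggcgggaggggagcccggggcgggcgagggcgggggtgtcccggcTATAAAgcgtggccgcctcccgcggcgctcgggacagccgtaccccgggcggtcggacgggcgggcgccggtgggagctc
CEBPA: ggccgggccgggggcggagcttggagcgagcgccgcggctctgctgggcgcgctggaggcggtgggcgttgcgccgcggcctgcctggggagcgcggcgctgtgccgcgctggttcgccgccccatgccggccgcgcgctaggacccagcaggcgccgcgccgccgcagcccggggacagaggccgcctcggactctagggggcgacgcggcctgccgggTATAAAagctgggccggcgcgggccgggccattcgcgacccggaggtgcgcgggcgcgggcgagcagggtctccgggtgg
CEBPB: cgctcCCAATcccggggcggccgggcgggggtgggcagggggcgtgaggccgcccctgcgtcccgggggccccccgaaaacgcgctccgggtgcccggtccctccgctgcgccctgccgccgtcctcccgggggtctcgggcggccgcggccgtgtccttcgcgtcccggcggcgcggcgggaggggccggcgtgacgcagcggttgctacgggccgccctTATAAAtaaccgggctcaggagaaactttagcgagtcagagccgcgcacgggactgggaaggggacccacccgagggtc

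The FOXA1 window (chr14:37595200-37595499, minus strand) held the forkhead motif TGTTTGC, on the opposite strand, 235 bases before the start. TGTTTGC was present in 3.89% of all 35116 windows, and the other forkhead form searched, TGTTTAC, in 3.42%. The FOXA3 window (chr19:45864076-45864375, plus strand) held TATAAA, the TATA box core, 30 bases before the start and the AP-1 motif TGANTCA 185 bases before it. These were found in 11.5% and 7.71% of all windows. The FOXA1 and FOXA3 windows lay inside the genes as counted here, whose 5′ ends are at chr14:37596059 and chr19:45863989. The RefSeq starts used for them thus differ from the outer ends of the counted genes.

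The CEBPA window (chr19:33302485-33302784, minus strand) also held TATAAA 30 bases before its start. Of the 2 CEBPB starts in the table, the second (chr20:50190580-50190879, plus strand) is shown, with TATAAA 29 bases and CCAAT 245 bases before the start. CCAAT was found in 34.6% of all windows. The C/EBP motif TTGCNNAA (10.5% of windows) and the ONECUT motif ATTGAT (6.26%) were not in the windows of these 5 factors. Both strands were searched, the motifs as written do not overlap here, and a match is a string of letters and not a tested binding site.

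Depth was 17427519 to 18348470 reads on genes in the vector libraries and 18509665 to 22253295 in the nPD-L1-labelled libraries. Within a group, 549 to 1281 genes differed more than 2-fold between a pair of libraries, most between vector replicates 2 and 3. CD274, the gene of PD-L1, read 28.3, 38.4 and 47.8 with vector, while the libraries carrying the nPD-L1 label read 16.8, 19.2 and 30.9. The groups overlapped, and CD274 was not higher where nPD-L1 was to be expressed (log2 fold change -0.76, SE 0.34, limma adjusted p = 0.338), so the second group is named here by its label. The paper examined PD-L1 protein in its stable Hep3B cells, also by cellular fractionation, and reports enforced nuclear expression. Protein was not measured here.

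Hepatocyte markers were checked against the labelled liver origin, and most of them did not bear it out. The identity of the cells as Hep3B rests here on the labels. Albumin (ALB) was at most 2.02 scaled reads in every library and transthyretin (TTR) at most 2.89, and 6 of 8 hepatocyte markers were below the filter on low values, a value of 10 in at least 3 libraries. FGB, a fibrinogen chain made by hepatocytes, was present at 962 to 1540 and carried nearly all of the summed marker level, 987 to 1559 in vector and 1019 to 1148 in the nPD-L1-labelled libraries. KRT7, a keratin of bile duct epithelium, was at 24578 to 37356, and SOX9, a bile duct and progenitor factor, at 383 to 568. SPP1, secreted by bile duct cells among others, was at 1181 to 4111, whereas EPCAM, an epithelial adhesion molecule of bile ducts, was near the filter at 10.1 to 26.3. None of the 4 measured cholangiocyte markers was called.

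Among markers of other liver cells, COL1A1, a fibrillar collagen, was higher in the nPD-L1-labelled libraries (65.3 ± 16.5 against 465.6 ± 21.1, log2 fold change 2.84, limma adjusted p = 7.99e-06), the only call among 3 tested stellate and fibroblast markers. The 4 measured endothelial markers summed to at most 11.1 and the 4 leukocyte markers to at most 28.2 in any library. Of 2 measured hepatoblast markers, 1 was tested and not called, and AFP, GPC3 and DLK1 were not analysed here. In bulk RNA, fewer cells expressing a gene and less RNA per cell cannot be told apart.

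**Figure D1:**
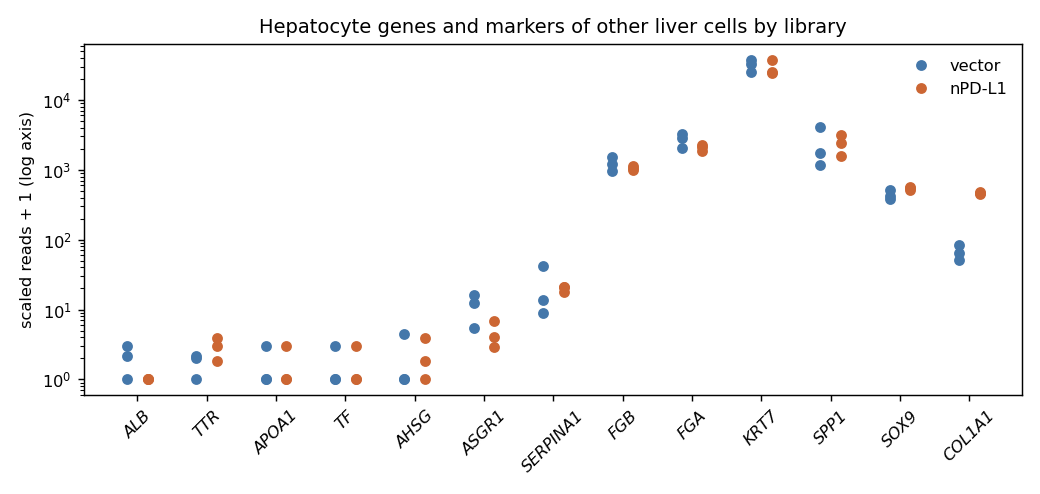
Hepatocyte genes and markers of other liver cells. The vertical axis is scaled reads plus 1 on a log axis, and each point is 1 library, blue for vector and orange for nPD-L1. ALB, TTR, APOA1, TF and AHSG lay near 0 in both groups, FGA, FGB and KRT7 were high in both, and COL1A1 separated the groups.

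Of the 8 factors, 7 passed the filter and were tested with limma on log2(value + 1) over 15076 genes, with Benjamini-Hochberg adjustment over all of them. FOXA1 and CEBPB were called higher in the nPD-L1-labelled libraries (2 factors, where 4.04% of all tested genes were higher), FOXA2 was called lower (1 factor, where 0.922% were lower), and 4 were not called. In either direction 4.96% of all genes were called. By edgeR 2 factors were higher (4.1% of all genes) and 2 lower (0.942%), FOXA2 and CEBPD, and by DESeq2 2 were higher (5.03%) and 1 lower (1.34%). The groups did not overlap for 4 factors, FOXA1, FOXA2, CEBPB and CEBPD, against 20.6% of all tested genes. The median log2 fold change was 0.20 over the 7 tested factors and -0.02 over all tested genes.

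**Figure D2:**
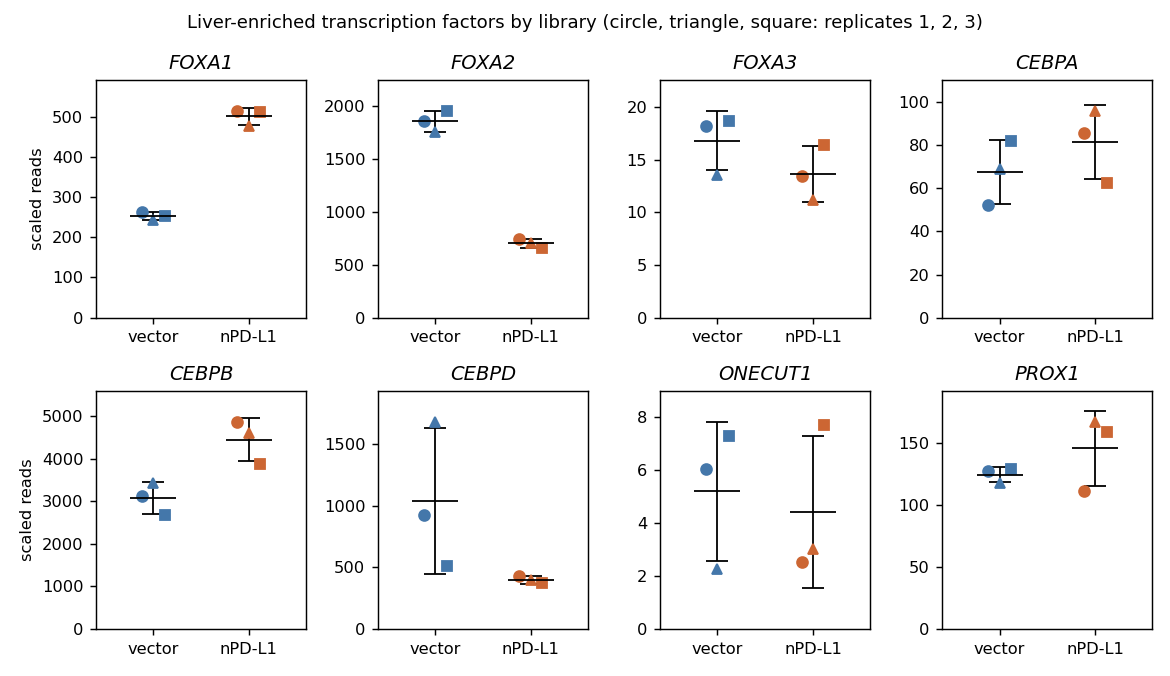
Levels of the 8 factors in scaled reads on a linear axis from 0, 1 panel per gene. Points are libraries, the long bar is the mean and the whiskers the SD of 3 libraries. FOXA1 and CEBPB were higher and FOXA2 and CEBPD lower in every library labelled nPD-L1, and the other 4 genes overlapped between groups.

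FOXA1, which is also the pioneer factor of hormone receptors in breast and prostate epithelium, rose 1.98-fold. Its gene (GRCh38 chr14:37589984-37596059, minus strand) read 262, 242 and 253 in vector replicates 1, 2 and 3, and 514, 476 and 510 in the nPD-L1-labelled libraries. The lowest of the second group was well above the highest of the first, and replicates of each group lay within 1.09-fold of each other. The means were 252 ± 10.4 and 500.3 ± 20.8 (SD, n = 3), a log2 fold change of 0.99 (SE 0.12, 95% interval 0.72 to 1.25, limma adjusted p = 0.000574). The gene shares 213 bases with TTC6 on the opposite strand, and the library kit does not mark strand. TTC6 itself read 9.08, 3.39 and 11.4 in vector, and 16.8, 18.2 and 14.5 in the nPD-L1-labelled libraries. It was apart between groups but not called (log2 fold change 1.09, limma adjusted p = 0.355).

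FOXA2, needed for the formation of the endoderm and active in liver and pancreas, moved the other way. Its gene (chr20:22581005-22585455, minus strand) read 1856, 1752 and 1953 in vector, and 742, 700 and 661 in the nPD-L1-labelled libraries. Every vector library was above every library of the second group. The mean fell from 1854 ± 101 to 701 ± 40.6, a log2 fold change of -1.40 (SE 0.10, 95% interval -1.62 to -1.18, limma adjusted p = 1.23e-05), or 2.64-fold lower.

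FOXA3, the FOXA family member most abundant in the mature liver and involved in glucose supply, was close to the filter. Its gene (chr19:45863989-45873797, plus strand) read 18.2, 13.6 and 18.7 in vector, and 13.4, 11.1 and 16.4 in the nPD-L1-labelled libraries. The groups overlapped, with 11 to 18 reads behind each value. Its log2 fold change was -0.28 (SE 0.37, 95% interval -1.11 to 0.55, limma adjusted p = 0.784), an interval that does not reach the change of FOXA2.

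The make-up of the FOXA family differed between the groups. Expressed per kilobase of gene model, FOXA2 exceeded FOXA1 by 11.2 ± 0.52-fold in vector and by 2.15 ± 0.14-fold in the nPD-L1-labelled libraries. FOXA1 made up 8.10% ± 0.34 of FOXA reads per kilobase in vector and 31.3% ± 1.36 in the other group, and FOXA2 90.9% and 67.1%. FOXA2 thus remained the most abundant FOXA transcript in all 6 libraries. The 3 genes summed to 783 ± 41.3 scaled reads per kilobase in vector and 401 ± 16.8 in the nPD-L1-labelled libraries, without overlap (two-sided exact permutation p = 0.1, the smallest that 3 against 3 allows). Most of the sum is FOXA2, so it is not a result apart from that gene.

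To describe the balance, the log2 ratio of FOXA1 to FOXA2 in scaled reads was taken in each library. It was -2.82, -2.85 and -2.95 in vector, and -0.53, -0.55 and -0.37 in the nPD-L1-labelled libraries. The ratio was higher by 2.39 on the log2 scale in the second group, and by 2.33 to 2.42 when any 1 library was left out (exact permutation p = 0.1, 0.133 adjusted over 4 ratios). With FOXA1 higher and FOXA2 lower in every library of the second group, the ratio had to separate the groups. It therefore adds no test beyond the results of the single genes. For FOXA3 to FOXA2 the ratio was higher by 1.12 (exact permutation p = 0.1, adjusted 0.133), with FOXA3 itself not called. That ratio mostly follows FOXA2 and is likewise no separate result.

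**Figure D3:**
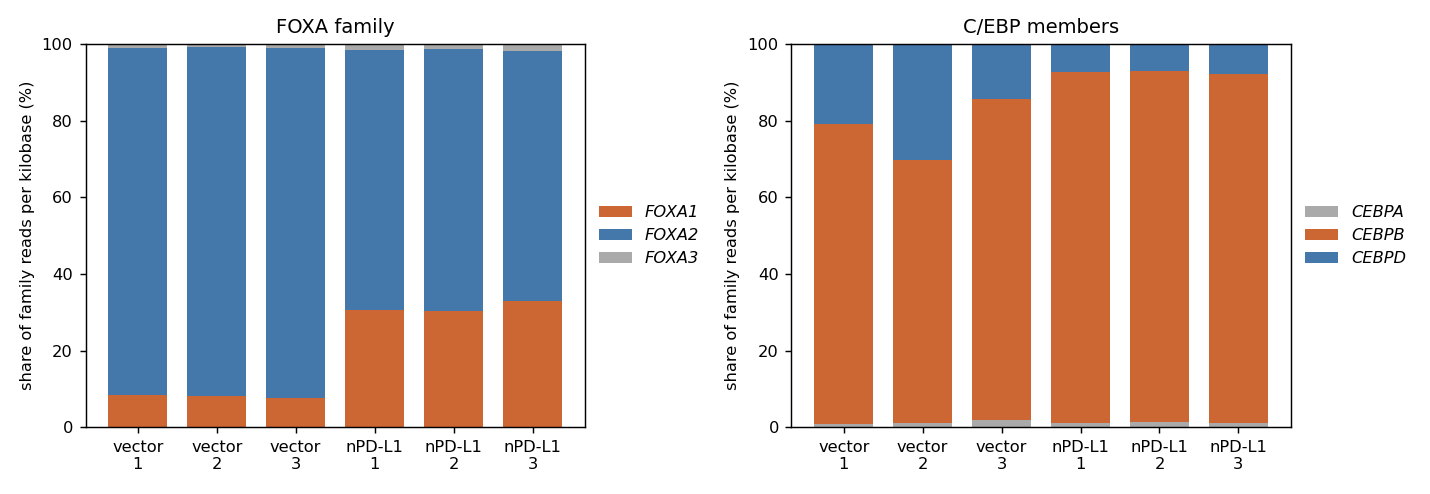
Composition of the FOXA family (left) and of the C/EBP members (right) in each library, as a percentage of the summed scaled reads per kilobase. FOXA1 took 8.10% of the FOXA sum in vector and 31.3% in the nPD-L1-labelled libraries, and CEBPD took 21.8% and 7.37% of the C/EBP sum.

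Among the C/EBP genes, CEBPA showed no detectable difference. Its gene (chr19:33299934-33302564, minus strand) read 52.5, 68.9 and 82.1 in vector, and 85.7, 96.1 and 62.7 in the nPD-L1-labelled libraries. The groups overlapped, since the third library of the second group lay below 2 vector libraries. The log2 fold change was 0.26 (SE 0.25, 95% interval -0.28 to 0.81, limma adjusted p = 0.702).

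CEBPB was the most abundant of the 8 factors per kilobase in both groups and rose further. Its gene (chr20:50190734-50192689, plus strand) read 3118, 3429 and 2690 in vector, and 4863, 4602 and 3880 in the nPD-L1-labelled libraries. All 3 of the latter were above the highest vector library. The mean rose from 3079 ± 371 to 4448 ± 509, 1.44-fold, with a log2 fold change of 0.53 (SE 0.12, 95% interval 0.26 to 0.80, limma adjusted p = 0.0328, edgeR 0.0271, DESeq2 0.00280). The call lay near the threshold. It was lost without vector replicate 1 (adjusted p = 0.135), vector replicate 3 (0.0722), nPD-L1 replicate 1 (0.167) or nPD-L1 replicate 2 (0.161) in the limma fit, with the log2 fold change between 0.44 and 0.63 when 1 library was left out. CEBPB-AS1, which overlaps 765 bases of the gene on the other strand, stood at 11.1 to 40.7 and was not called (limma adjusted p = 0.311).

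CEBPD, on chromosome 8, was the member whose vector libraries differed most among themselves. It read 923, 1679 and 510 in vector, a 3.29-fold range, and 429, 396 and 369 in the nPD-L1-labelled libraries, a 1.16-fold range. Every library of the second group was below the lowest of the first. The means were 1037 ± 593 and 398 ± 29.6, with a log2 fold change of -1.22 (SE 0.37, 95% interval -2.06 to -0.37), which did not pass in limma (adjusted p = 0.141) or DESeq2 (0.0582) and did in edgeR (0.0380). Without vector replicate 3 the log2 fold change was -1.64 (limma adjusted p = 0.000351), and without vector replicate 2 it was -0.79 (0.0711).

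The order of the vector libraries in CEBPD was shared with most of the tested acute-phase genes. Vector replicate 2 was the highest vector library in 7 of the 8 tested acute-phase genes and replicate 3 the lowest in 8 of 8, against 6162 and 5342 of all 15076 tested genes. In the list of genes that control C/EBP factors the same counts were 6 and 7 of 16. Among tested hepatocyte products, a list that shares FGA, FGB and FGG with the acute-phase genes, they were 5 and 7 of 11. This pattern was looked for after the values of CEBPD had been seen, and its part in the CEBPD difference was not tested.

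Within the C/EBP members, CEBPB made up 76.9% ± 7.62 of the summed reads per kilobase in vector and 91.4% ± 0.24 in the nPD-L1-labelled libraries. CEBPD took 21.8% ± 8.02 and 7.37% ± 0.37, without overlap, and CEBPA 1.30% and 1.24%. The log2 ratio of CEBPD to CEBPA was lower by 1.48 in the nPD-L1-labelled libraries (log2 difference -1.48, exact permutation p = 0.1, adjusted 0.133), and by 1.07 to 2.05 when 1 library was left out. With CEBPA not called, this ratio mostly follows CEBPD and is no separate result. The log2 ratio of CEBPB to CEBPA differed by 0.27 (exact permutation p = 0.5), and by 0.027 to 0.45 when 1 library was left out. The summed level was 2076 ± 456 and 2488 ± 279 per kilobase and overlapped between groups (exact permutation p = 0.2).

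ONECUT1 was barely transcribed. Its gene (chr15:52756989-52791078, minus strand) had 6, 2 and 7 reads in vector, and 3, 3 and 8 reads in the nPD-L1-labelled libraries. The groups overlapped, no value reached the filter, and at this depth no difference could be detected. Its relatives ONECUT2 and ONECUT3 were tested and not called, with log2 fold changes of 0.63 (limma adjusted p = 0.145) and 0.58 (limma adjusted p = 0.600).

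PROX1, which in hepatoblasts allows migration and growth of the liver bud, overlapped between groups. Its gene (chr1:213983181-214041502, plus strand) read 127, 117 and 129 in vector, and 111, 167 and 159 in the nPD-L1-labelled libraries. The first library of the second group was the lowest of all 6 and the other two the highest. The log2 fold change was 0.20 (SE 0.19, 95% interval -0.22 to 0.63, limma adjusted p = 0.703). PROX1-AS1 shares 5328 bases with it on the other strand and was at 13.1 to 28.0.

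**Figure D4:**
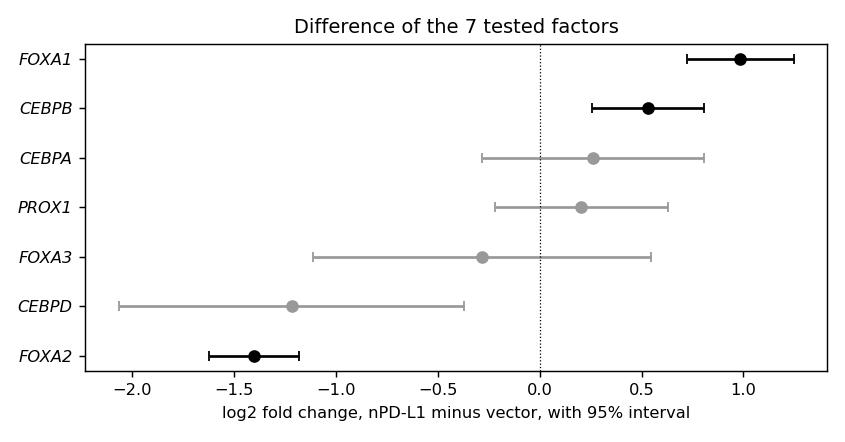
Log2 fold change (horizontal axis, nPD-L1 minus vector, limma on log2(value + 1)) of the 7 tested factors, with 95% intervals that are not adjusted for the number of genes. Black points passed an adjusted p of 0.05 and grey points did not: FOXA1 (0.99) and CEBPB (0.53) lay right of 0, FOXA2 (-1.40) left of it, and CEBPD (-1.22) left of it with the widest interval.

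Per kilobase the factors stood in the same order in both groups: CEBPB, FOXA2, CEBPD, FOXA1, CEBPA, PROX1, FOXA3 and ONECUT1. In vector the levels ran from 1574 ± 190 scaled reads per kilobase (CEBPB) through 712 ± 38.6 (FOXA2) and 63.3 ± 2.61 (FOXA1) to 1.35 ± 0.68 (ONECUT1). FOXA2 and CEBPD overlapped there, since CEBPD ranged from 234 to 771, while no other neighbours in the order overlapped. In the nPD-L1-labelled libraries the neighbours FOXA2 (254 to 285), CEBPD (170 to 197) and FOXA1 (120 to 129) drew closer and none overlapped. Among all tested genes, FOXA2 went from the 92.0th to the 78.3rd percentile of mean level per kilobase and FOXA1 from the 46.3rd to the 61.5th.

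For each tested factor, the protein-coding gene with the most similar profile over the 6 libraries was sought, by Pearson's r of log2(value + 1) among genes whose mean reached 100. Each r is the highest among 10261 or 10262 candidate genes, so its size comes in part from the selection. These r values describe 6 libraries in 2 groups and carry no test. FOXA1 was most like SEMA7A, a membrane-anchored semaphorin (r = 0.999), and FOXA2 most like TESMIN (r = 0.995). SEMA7A rose far more than FOXA1, from 14.7 to 20.2 in vector to 273 to 392 in the nPD-L1-labelled libraries. CEBPB was most like ZNF672 (r = 0.992), and CEBPD most like PROCR, the endothelial protein C receptor (r = 0.994). For FOXA3, CEBPA and PROX1 the nearest were NAPB (r = 0.991), MFSD13A (r = 0.984) and PICALM (r = 0.992).

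Other liver factors were counted from a list of 26, of which 19 were tested, 4 were higher and 2 lower, beside 4.04% and 0.922% of all tested genes. HHEX, a homeobox factor needed for the liver bud, fell from 1479, 1938 and 1110 in vector to 685, 607 and 556 (log2 fold change -1.26, SE 0.18, limma adjusted p = 0.00176). NR5A2, a nuclear receptor of bile acid synthesis, fell from 243, 124 and 292 to 59.7, 57.7 and 52.1 (log2 fold change -1.86, SE 0.28, limma adjusted p = 0.00285). Both separated the groups, as FOXA2 did. Among the 4 higher, TBX3, a T-box factor of hepatoblasts, had a log2 fold change of 0.77 (limma adjusted p = 0.0287), and RXRA, the shared partner of many nuclear receptors, of 0.57 (limma adjusted p = 0.00942). The number called higher was 1 to 5 with any 1 library left out, and was 1 without nPD-L1 replicate 1. It was 2 without vector replicate 1, nPD-L1 replicate 2 or nPD-L1 replicate 3. TBX3 lost its call in each of these 4 fits (limma adjusted p = 0.0753 to 0.140), and RXRA without vector replicate 1 (0.0549) or nPD-L1 replicate 1 (0.0584), while HHEX and NR5A2 kept theirs whichever library was left out.

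The C/EBP factors are themselves controlled by cytokine and stress signals and by inhibitory partners. Of 16 such genes, all tested, 3 were lower (0.922% of all tested genes were) and 0 higher (4.04% of all were) by limma (higher: 0 by edgeR and by DESeq2, and 2 at an unadjusted p under 0.05). IL6, the cytokine that induces CEBPB and CEBPD in liver, read 52.5, 82.4 and 23.9 in vector, and 4.20, 5.06 and 11.6 in the nPD-L1-labelled libraries (log2 fold change -2.71, SE 0.52, limma adjusted p = 0.0106). IL6 passed the filter through its vector libraries, and nPD-L1 replicates 1 and 2 were below 10, near the floor. With a value of at least 10 required in every library, IL6 was not tested and 2 genes of this list were lower. DDIT3, a stress-induced C/EBP relative that pairs with and restrains the others, had a log2 fold change of -0.87 (limma adjusted p = 0.0157), and NFKBIZ, a nuclear partner of NF-κB, one of -1.01 (limma adjusted p = 0.00223). The number called lower was 1, NFKBIZ, without vector replicate 1 or nPD-L1 replicate 1. DDIT3 also lost its call without nPD-L1 replicate 3 (limma adjusted p = 0.102). CEBPG, the relative without an activation domain, was at 1781 to 2029 in vector and 2280 to 2389 in the nPD-L1-labelled libraries, apart but not called (log2 fold change 0.31, limma adjusted p = 0.115).

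The genes that these factors are known to drive in hepatocytes were mostly below the filter or not called. Of 37 hepatocyte products, 27 had a row and 11 passed the filter, with 1 lower and 0 higher by limma, beside 0.922% and 4.04% of all tested genes (higher: 0 by edgeR and by DESeq2, and 1 at an unadjusted p under 0.05). IGFBP1, a secreted binding protein of insulin-like growth factors, read 511, 625 and 700.4 in vector, and 427, 349 and 253 in the nPD-L1-labelled libraries (log2 fold change -0.85, SE 0.19, limma adjusted p = 0.0273). All 3 of the latter were below the lowest vector library, and the call of IGFBP1 was lost in limma without nPD-L1 replicate 2 (adjusted p = 0.0746), nPD-L1 replicate 3 (0.115) or vector replicate 3 (0.0535). CPS1, the first enzyme of the urea cycle, was at 119 to 170 in all libraries and not called (limma adjusted p = 0.917).

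Of 22 acute-phase genes, 18 had a row and 8 were tested, with 0 called in limma, edgeR or DESeq2 and 1 lower at an unadjusted p under 0.05. The fibrinogen chains FGA, FGB and FGG, transcribed together in the acute phase, had log2 fold changes of -0.38, -0.20 and -0.11 (limma adjusted p = 0.311, 0.628 and 0.822). Without vector replicate 3, FGA was called lower (log2 fold change -0.57, limma adjusted p = 0.0169), the 1 acute-phase call made when single libraries were left out. Of 9 noncoding genes listed as neighbours of the factors, 4 were tested and 0 called by any of the 3 tools, with 1 lower at an unadjusted p under 0.05. LINC00842, among those tested, lies on chromosome 10, which holds none of the factors, so it is not a neighbour.

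FOXA1 and FOXA2 belong to the large forkhead class, which was read from the class column of the table after the values had been seen and is given as a description. Of 37 forkhead genes, 27 were tested, of which 7 were higher (25.9%, beside 4.04% of all genes) and 1 lower, FOXA2. The median log2 fold change was 0.41. The largest increases were in FOXO1, a target of insulin signalling (log2 fold change 1.66, limma adjusted p = 0.000118), and in FOXN3, a repressor acting in the liver on glucose metabolism (log2 fold change 1.39, limma adjusted p = 0.000111). FOXA1 came next (0.99), and FOXK1, FOXC1, FOXD1 and FOXP4 followed with log2 fold changes of 0.89, 0.89, 0.86 and 0.42. The decrease of FOXA2 (-1.40) was between FOXO1 and FOXN3 in size.

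**Figure D5:**
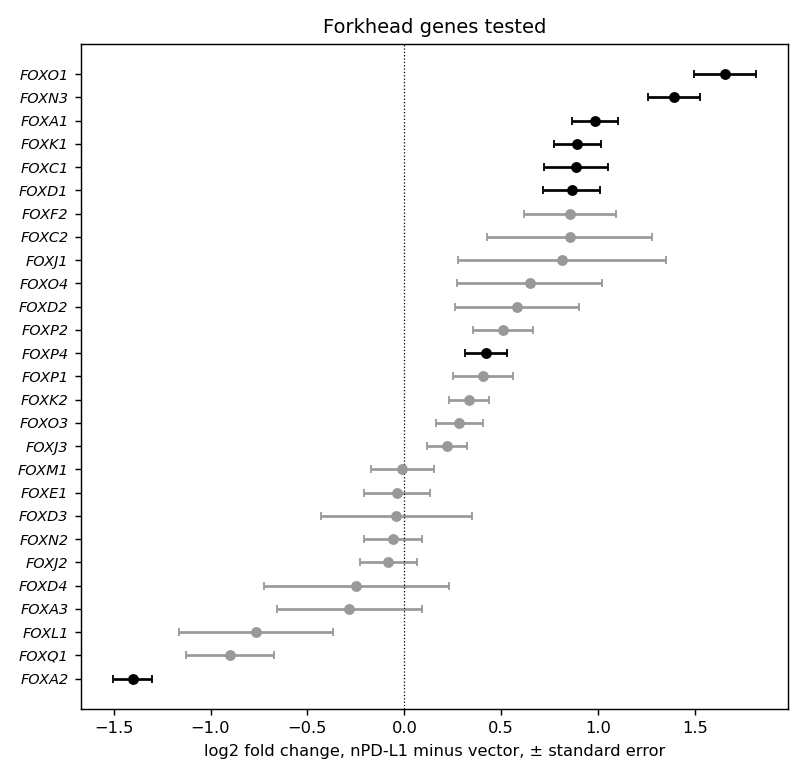
Log2 fold change (horizontal axis, nPD-L1 minus vector) with its standard error for the 27 tested forkhead genes, ordered by size. Black points passed an adjusted p of 0.05 and grey points did not: 7 genes from FOXP4 (0.42) to FOXO1 (1.66) lay right of 0, and FOXA2 (-1.40) was the only black point left of it.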

How the data were processed

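RNA was extracted from cells labelled as PD-L1-knockout Hep3B with vector or nPD-L1. It was made into libraries with a kit that does not mark strand, and sequenced by a company. The submitters' processing notes name HISAT2 (version 2.0.5) and hg38; the counting tool is not given in the sources used here. The authors' deposited values are a signal, the reads per gene divided by a size factor of the library. The deposited table also holds the authors' group means, log2 fold changes and p-values, which were not used.

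In each library all nonzero values were whole multiples of 1 step (within 0.01 of a read), and the whole reads so recovered were analysed with edgeR (4.0.16, quasi-likelihood) and DESeq2 (1.42.0) as alternatives. The main test was limma (3.58.1, R 4.3.3; intensity trend, robust moderation) on log2(value + 1), for genes that reached 10 in 3 or more libraries, with calls at an adjusted p (Benjamini-Hochberg) under 0.05 and no fold threshold. Adding 1 understates the change of low genes. Ratios and sums were tested by two-sided exact permutation. Labels do not say that libraries came from separate cultures, so p-values measure only the spread between these libraries. Relative counting error grows as reads fall, and it was not separated from the spread between libraries. The scripts were tested on simulated data.

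Named were CD274, the 8 factors, called genes, relatives and markers from the lists, and the most similar gene of each factor. The factors and lists were chosen with earlier results of these data known. Some results for single genes of these lists are not reported here. Alternatives were other pseudocounts, filters, scalings, moderation, thresholds, a gene length trend, a replicate block, protein-coding genes alone, and each library left out.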

Additional observations from a re-analysis of the deposited data

How the results depend on the processing

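No tested factor and no ratio changed direction under the alternatives run for it. Single genes of the lists were not followed through all of them. SERPINA1, not called, had a log2 fold change of 0.22 by limma and of -0.12 by edgeR and by DESeq2. FOXA2 kept its call in all 21, and FOXA1 in all but the one that also asked for a log2 fold change of at least 1 (its own was 0.99). CEBPB lost its call under 7 of 21, among them upper-quartile scaling (log2 fold change 0.48, adjusted p = 0.0629) and limma without the intensity trend (adjusted p = 0.151). Under upper-quartile scaling 1 factor was called higher, and the median of all genes was -0.07 with 75.4% of calls higher, against 81.4% as deposited. Without the trend, 1 factor and 1 other liver factor were higher, and 1 gene of C/EBP control and 0 hepatocyte products lower. With a value of at least 10 required in every library, 3 other liver factors were higher and 2 genes of C/EBP control lower. With a log2 fold change of at least 1 also required, 0 factors and 2 other liver factors were higher and 0 hepatocyte products lower. At an unadjusted p under 0.05, 2 factors, 4 other liver factors, 2 hepatocyte products, 1 acute-phase gene and 1 noncoding gene were lower, and 2 genes of C/EBP control and 1 hepatocyte product higher. By edgeR 2 factors were lower, FOXA2 and CEBPD. The causes were not tested.

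When single libraries were left out, 1 to 2 factors were higher and 1 to 2 lower, 1 to 5 other liver factors higher and 2 to 3 lower, 0 to 1 genes of C/EBP control higher and 1 to 3 lower, and 0 to 1 hepatocyte products and 0 to 1 acute-phase genes lower. Same-numbered libraries did not deviate together throughout (correlations -0.01, 0.23 and 0.13), and vector replicate 1 was most like nPD-L1 replicate 3 (0.07), so the numbers were not taken as pairs. With the replicate block, 1185 genes were called against 748, and 1 gene of C/EBP control was higher. ONECUT1, tested without the filter, had a log2 fold change of -0.21 (limma adjusted p = 0.940).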
